A study of Homo sapiens with 6 samples.

Results

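Genes of the centrosome and the spindle poles were followed through 2 RNA-seq experiments on MDA-MB-231, a human triple-negative breast cancer line. A list of 38 genes was chosen for the known roles of their products, and a gene entered where its symbol was a row of the count tables. All 38 were found in both tables, among 41471 gene symbols in the knockdown experiment and 34157 in the drug experiment, and all 38 passed the filter on low counts. In the knockdown experiment the cells were stably transfected, through lentivirus, with scramble-shRNA, CDK16-sh1 or CDK16-sh2. The hairpins are 2 separate shRNAs against CDK16, a cyclin-dependent kinase that works with cyclin Y. In the drug experiment the cells were given DMSO, the solvent, or Rebastinib (Reb) at 1 μM or 5 μM for 48 h. Reb is a kinase inhibitor proposed to act on CDK16, and the study describes it as acting on other kinases too, such as Tie2. Each of the 6 conditions had 1 library, so no difference given here has a replicate check. In bulk RNA, fewer cells of a kind and less RNA per cell cannot be told apart.

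The centrosome holds a pair of centrioles inside a protein matrix, the pericentriolar material, where γ-tubulin ring complexes start new microtubules. The centrioles duplicate once per cell cycle under the kinase PLK4, and in mitosis the centrosomes form the poles of the spindle, where augmin adds microtubules to existing ones and AURKA, TPX2, TACC3 and CKAP5 build and stabilize the fibres. Outside mitosis the older centriole, with its appendages, can anchor the primary cilium. The 38 genes were grouped as pericentriolar material and γ-tubulin ring complex (9 genes), centriole duplication and assembly (11), appendages, linker, satellites and ciliary base (9), augmin (3), and mitotic spindle pole and midbody (6).

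The libraries held between 25838443 and 50303269 counted reads. The targeted gene, CDK16, stood at a log2 fold change of −1.52 with CDK16-sh1 and −1.82 with CDK16-sh2, from 3223 counts under scramble-shRNA to 1360 and 846. In the Reb experiment its log2 fold change was −0.14 at 1 μM and 0.27 at 5 μM. The 6 markers of the cell line (VIM, CD44, EGFR, MSN, CAV1, AXL) had between 607 and 188518 counts in every library. ESR1, PGR and FOXA1, which mark luminal breast cells, had at most 31, while ERBB2 and GATA3, listed with them, were present with 996 to 3396 and 73 to 390 counts. CDH1 reached 53 counts and the blood marker PTPRC 35, each in the library of 1 μM Reb, PECAM1 of the endothelium reached 154 in DMSO, and ALB of the liver had at most 1. Mitochondrial transcripts took 16.2% of the counts in CDK16-sh2 and 16.4% at 5 μM Reb, against 7.19% to 11.3% in the other 4 libraries. Their part in the results was not tested.

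Differences are log2 fold changes of counts scaled to library size (CPM), with the sizes adjusted by edgeR's TMM method, and set each treated library against its own control. Intervals in brackets are 95% Clopper-Pearson intervals, which cover counting error only. They reached a median of 0.124 to each side over the 38 genes in CDK16-sh1, 0.118 in CDK16-sh2, 0.0692 at 1 μM Reb and 0.102 at 5 μM Reb. A gene was taken as lower or higher where it differed at least 2-fold. Counts are read against the share of all tested genes that met the same rule in the same library. There were 15295 tested genes in the knockdown and 15655 in the Reb experiment.

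Levels of different genes were compared as RPKM, the reads scaled by gene length and library total. By this measure the 4 most abundant of the 38 in each control were TPX2, AURKA, CEP55 and TACC3, all of the spindle pole and midbody group. TPX2, which activates AURKA and helps spindle microtubules form, had the highest level, at 133 RPKM in the scramble library and 176 RPKM in DMSO. AURKA, the mitotic kinase of the spindle poles, followed in the scramble library with 55.3 RPKM, ahead of CEP55, a midbody protein of the last step of cell division, with 47.6 RPKM. In DMSO the order of these 2 genes was turned, with 57.7 RPKM for CEP55 and 46.3 RPKM for AURKA. Among the other groups, PCNT led the pericentriolar material (25.4 and 29.3 RPKM), CNTROB the centriole genes (22.4 and 31.1), CEP250 the appendage and linker genes (24.2 and 43.6) and HAUS8 the augmin subunits (14.1 and 10.03). CEP76 was lowest in DMSO, at 1.48 RPKM, and TUBGCP4 in the scramble library, at 2.04 RPKM, next to CEP76 at 2.05 RPKM. The controls were not replicated and their tables were normalized separately, so neighbours in this order cannot be separated by a spread. Summed and divided by the library totals, the 38 genes came to 3783 CPM with scramble-shRNA, 2792 CPM with CDK16-sh1 and 3179 CPM with CDK16-sh2. The sum was 5023 CPM in DMSO, 5002 CPM at 1 μM Reb and 2046 CPM at 5 μM Reb. These sums lack the TMM adjustment used for the CPM of single genes. Scaling by library totals shifted all tested genes by −0.68 at 5 μM Reb and −0.19 in CDK16-sh2, so part of the lower sums there is that shift.

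**Figure D1:**
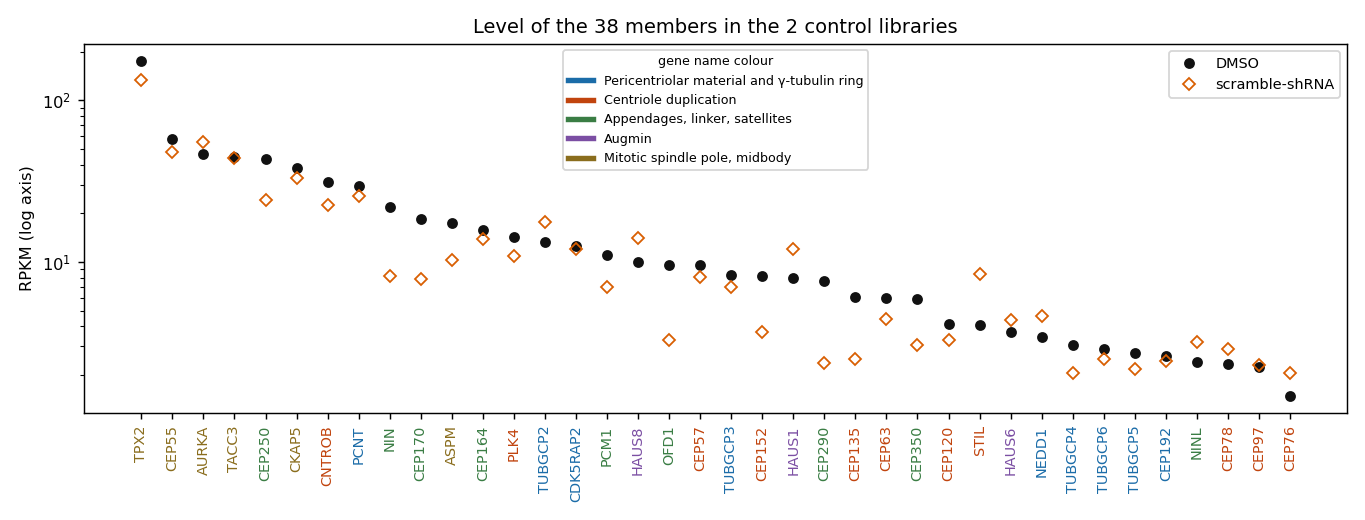
RPKM (log axis) of each of the 38 genes in the DMSO library (filled circles) and the scramble-shRNA library (open diamonds), 1 library each, ordered by the DMSO level, with gene names coloured by role. TPX2 stands at the left with 176 RPKM in DMSO and CEP76 at the right with 1.48 RPKM.

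The knockdown asks which of these genes change when CDK16 is reduced. In CDK16-sh1, 33 of the 38 genes were below their scramble level (50.1% of all tested genes were), with a median log2 fold change of −0.62 against −0.00 for all tested genes. Of the 38, 11 were at least 2-fold lower (6.86% of all tested genes) and 0 at least 2-fold higher (4.33%). In CDK16-sh2, 26 of the 38 were below the scramble level (48.6%), with a median of −0.17 against 0.02. In that library 2 of the 38 were at least 2-fold lower (7.62%) and 0 at least 2-fold higher (2.2%). The genes thus stood lower in CDK16-sh1 than all tested genes did, while in CDK16-sh2 the share at least 2-fold lower was 5.26%, under that of all tested genes. The hairpins share the scramble library, so error in that library moves both values together. Scaling by library totals in place of TMM shifted all tested genes in CDK16-sh2 by −0.19 and left 2 of the 38 at least 2-fold lower (11.1% of all tested genes). It put 30 of the 38 below 0 (63.9%), TUBGCP5, CEP120, TPX2 and TACC3 having turned from between 0.02 and 0.10 to below 0. With the trend of all genes in length removed, 19 of the 38 were below 0 (41.9% of all tested genes). Their median was 0.0153, against 0.11 for all tested genes. With the trend in GC content removed, 22 were below 0 (42.3% of genes with a value), with a median of −0.06 against 0.10.

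**Figure D2:**
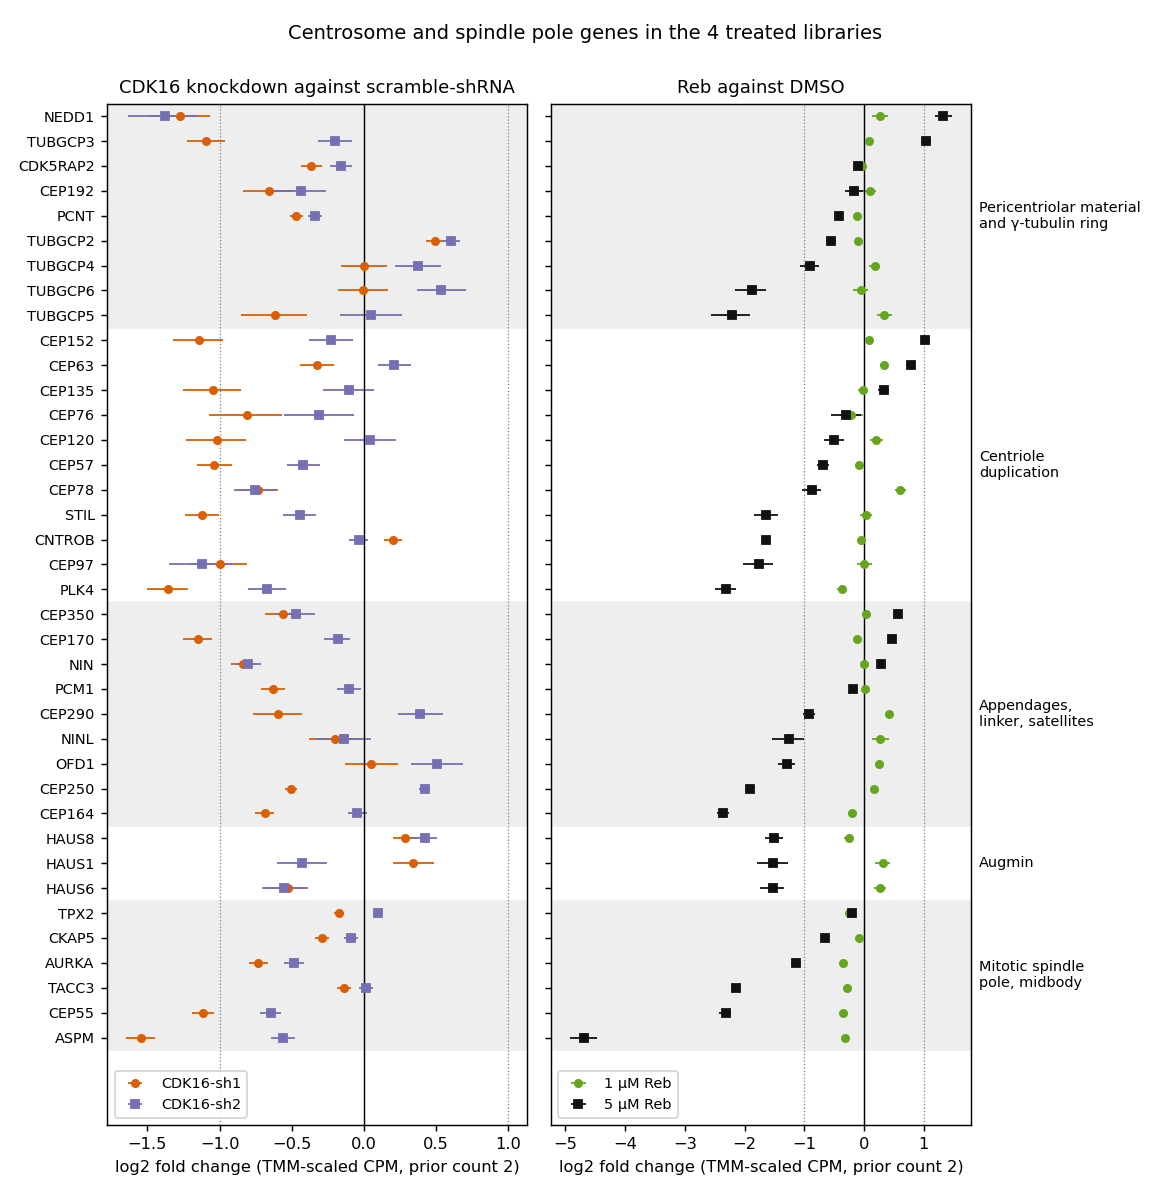
Log2 fold change (x axis) of each of the 38 genes, grouped by role, in CDK16-sh1 and CDK16-sh2 against scramble-shRNA (left) and in 1 μM and 5 μM Reb against DMSO (right), with 95% Clopper-Pearson intervals that cover counting error only, and dotted lines at 2-fold. NEDD1 is below −1 in both hairpin libraries and above 1 at 5 μM Reb, and ASPM lies at −4.69 at 5 μM Reb.

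NEDD1 was at least 2-fold lower in each hairpin library, at −1.27 [−1.50, −1.06] with the first hairpin and −1.38 [−1.64, −1.15] with the other. It was the only 1 of the 38 genes to be so, or 2.63%, against 1.44% of all tested genes. The NEDD1 protein carries the γ-tubulin ring complex to the centrosome and along the spindle, and the gene lies on chromosome 12 from 96907223 to 96953777. NEDD1 had 19.6 CPM in the scramble library, 8.06 CPM in CDK16-sh1 and 7.48 CPM in CDK16-sh2, and the difference between the hairpins of −0.11 [−0.39, 0.16] was within counting error. CEP97, which caps the ends of centrioles and keeps them from growing a cilium, was next, with 20.8 CPM in the scramble library, 10.4 CPM in CDK16-sh1 and 9.53 CPM in CDK16-sh2. That is −1.12 on the log2 scale in CDK16-sh2 and, just short of 2-fold, −0.999 in CDK16-sh1. Ranked by the smaller of their 2 differences, the next genes were NIN, CEP78 and PLK4.

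NIN, a subdistal appendage protein that anchors microtubules, went from 106.6 CPM to 59.6 CPM in CDK16-sh1 and 61.1 CPM in CDK16-sh2. CEP78, of the distal end of the centriole, went from 39.2 CPM to 23.6 and 23.2 CPM. For NIN and CEP78, as for NEDD1 and CEP97, the hairpin libraries stood next to each other. For PLK4 they did not: the gene had 46.4 CPM in the scramble library, 18.1 CPM in CDK16-sh1 and 29.1 CPM in CDK16-sh2, log2 fold changes of −1.35 and −0.67. For CEP55 the levels were 147.8, 68.3 and 94.5 CPM, with −1.11 and −0.64.

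The genes of centriole duplication had the lowest median in CDK16-sh1, −1.02, and 6 of the 11 were at least 2-fold lower there (6.86% of all tested genes). With the GC trend of all genes removed, none of the 6 was at least 2-fold lower, and they lay between −0.94 and −0.55. Besides PLK4 these were STIL, a partner of PLK4 in starting a new centriole (58.5 CPM in the scramble library, 26.9 in CDK16-sh1, 43.0 in CDK16-sh2), and CEP152, which docks PLK4 on the parent centriole (28.6, 12.9 and 24.4 CPM). CEP57 (54.8, 26.7 and 40.9 CPM), CEP120, which lengthens centrioles (18.99, 9.34 and 19.5 CPM), and CEP135, of the centriole wall (20.5, 9.88 and 19.1 CPM), completed the 6. In CDK16-sh2, CEP120 at 0.04 [−0.14, 0.22] and CEP135 at −0.10 [−0.28, 0.07] did not differ from the scramble library beyond counting error. The median of the group in CDK16-sh2 was −0.31, and CEP97 was its 1 gene at least 2-fold lower. CNTROB, a protein of the daughter centriole, stood apart with 132.6, 152.8 and 129.3 CPM. The other genes of the group, CEP63 and CEP76, were at −0.32 and −0.81 in CDK16-sh1 and at 0.21 and −0.31 in CDK16-sh2.

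In the pericentriolar material and γ-tubulin ring complex the medians were −0.47 and −0.16, and the ring subunits did not move together. TUBGCP3, a core subunit, had 46.9 CPM with scramble-shRNA, 22.0 CPM in CDK16-sh1 (−1.09 [−1.23, −0.96]) and 40.8 CPM in CDK16-sh2 (−0.20 [−0.32, −0.08]). TUBGCP2, which pairs with TUBGCP3 in the core, was higher with both hairpins, with 128.2, 180.7 and 195.2 CPM and log2 fold changes of 0.49 and 0.61. The exons of TUBGCP2 overlap those of ZNF511 on the opposite strand over 11.6% of their bases and those of TUBGCP4 overlap TP53BP1 over 33.4%, and whether the counting used strand is not given. TUBGCP4 and TUBGCP6 were at −0.00 and −0.01 in CDK16-sh1 and at 0.37 and 0.53 in CDK16-sh2, while TUBGCP5 was at −0.62 and 0.05. PCNT, the large scaffold of the matrix, whose protein the study immunostained, had 281.3 CPM in the scramble library, 203.4 CPM in CDK16-sh1 and 222.4 CPM in CDK16-sh2. The other scaffolds, CDK5RAP2 and CEP192, were between −0.66 and −0.16 in the 2 libraries.

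Among the appendage, linker and satellite genes the medians were −0.59 and −0.10, and 8 of the 9 were below 0 in CDK16-sh1 (50.1% of all tested genes). CEP170, a subdistal appendage protein, was at −1.15 in CDK16-sh1 and −0.18 in CDK16-sh2, with 81.5 CPM in the scramble library, 36.7 CPM in CDK16-sh1 and 71.8 CPM in CDK16-sh2. A pseudogene close to CEP170 in sequence exists, so its count is uncertain. With the length trend of all genes removed CEP170 was at −0.84 in CDK16-sh1, and with the GC trend removed at −0.78. CEP250, which links the 2 centrioles of a cell, went in opposite directions, with 374.0 CPM in the scramble library, 263.6 CPM in CDK16-sh1 and 501.5 CPM in CDK16-sh2. OFD1, of the distal centriole, had 16.2, 16.8 and 23.0 CPM and was at 0.05 [−0.13, 0.23] and 0.51 [0.33, 0.69]. The other genes of the group (CEP164, CEP290, CEP350, NINL and PCM1) ranged from −0.69 to −0.20 in CDK16-sh1 and from −0.47 to 0.39 in CDK16-sh2.

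The augmin subunits went in different directions. HAUS8, which binds augmin to microtubules, had 74.3, 90.5 and 99.5 CPM, higher with both hairpins (0.29 and 0.42). HAUS6 was lower with both (−0.53 and −0.55), and HAUS1 was higher in CDK16-sh1 (0.34) and lower in CDK16-sh2 (−0.43). All 6 spindle pole and midbody genes were below 0 in CDK16-sh1 (50.1% of all tested genes), with a median of −0.51. In CDK16-sh2, 4 of them were below 0 (48.6% of all tested genes), with a median of −0.29. With the length trend of all genes removed, TACC3 turned from −0.14 to 0.02 in CDK16-sh1. ASPM, which holds the spindle poles together and is a gene of inherited microcephaly, was the lowest of the 38 in CDK16-sh1. ASPM had 107.1 CPM in the scramble library, 36.7 CPM in CDK16-sh1 (−1.55 [−1.65, −1.45]) and 72.6 CPM in CDK16-sh2 (−0.56 [−0.65, −0.48]). AURKA was at −0.73 and −0.48, and TPX2, TACC3 and CKAP5 lay between −0.29 and 0.10 in both libraries.

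Set against each other, CDK16-sh2 was above CDK16-sh1 in 32 of the 38 genes, with a median difference of 0.41. Among all 15295 tested genes, CDK16-sh2 was the higher library in 7639, with a median difference of −0.00. The interval lay above 0 in 29 of 38 genes (37.4% of all tested genes) and below 0 in 2 of 38 (37.5%), HAUS1 and CNTROB. The largest difference was that of CEP120, at 1.06 [0.86, 1.28], followed by CEP290 at 0.99, ASPM at 0.98 and CEP170 at 0.97. Differences beyond counting error were thus common among all tested genes too, where they were divided about evenly. In the 38 genes they lay mostly upward. CDK16 itself stood at −1.52 with the first hairpin and −1.82 with the other. Whether the depth of the knockdown bears on the difference between the hairpins was not tested.

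**Figure D3:**
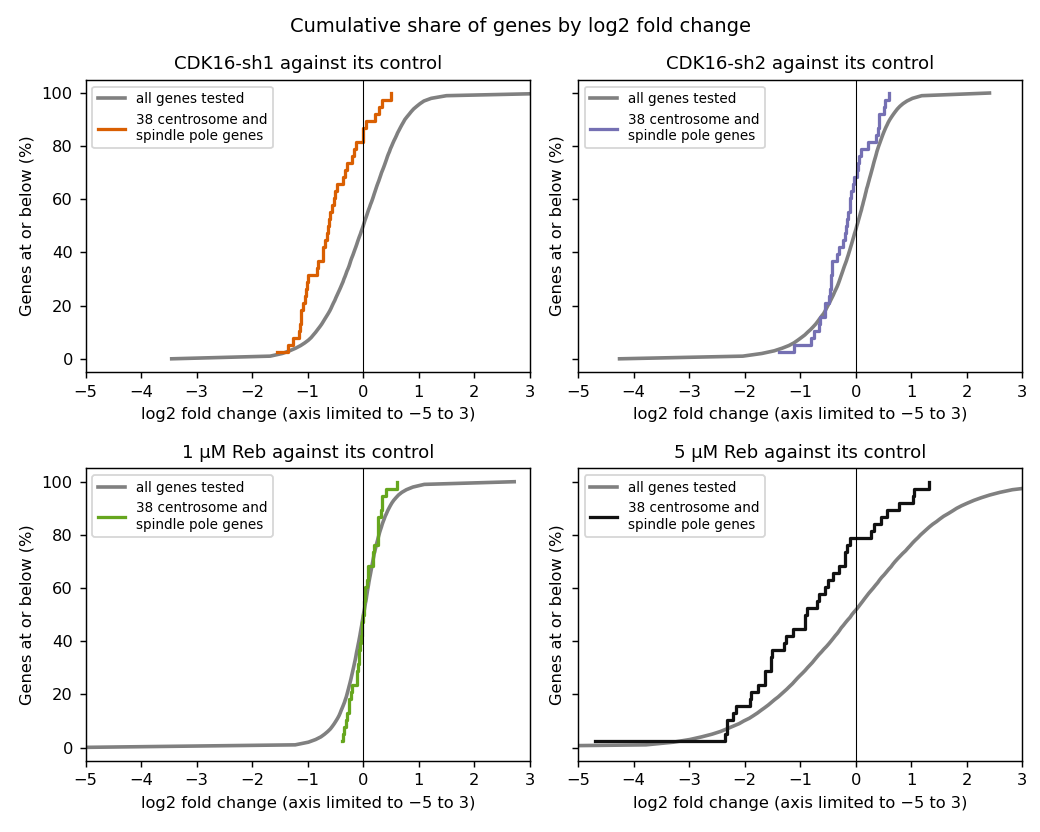
Cumulative share of genes (y axis, percent) by log2 fold change (x axis, limited to −5 to 3) for all tested genes (grey) and the 38 centrosome and spindle pole genes (coloured) in each treated library. The 38 genes lie to the left of all genes in CDK16-sh1 (medians −0.62 and −0.00) and at 5 μM Reb (−0.89 and −0.07), and nearly on them at 1 μM Reb.

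The counts in CDK16-sh1 moved with base composition, and the centrosome genes are rich in A and T. The longest annotated transcripts of the 38 genes had a median GC content of 42.5%, against 48.2% over the 84.6% of tested genes with a value, and their exons a median length of 7814.5 bases, against 4350. Across all genes with a value, the log2 fold change correlated with GC content with r = 0.48 in CDK16-sh1 and r = 0.13 in CDK16-sh2. Across the 38 genes r was 0.66 and 0.54. These are descriptions across genes of the same libraries. With the GC trend of all genes removed, the median of the 38 in CDK16-sh1 was −0.45, and 1 gene, ASPM (−1.08), remained at least 2-fold lower, next to TUBGCP3 at −0.999. That is 2.63% of the 38, under the 4.44% of genes with a GC value that were at least 2-fold lower after the same correction, so the larger share of the 38 past 2-fold in CDK16-sh1 did not hold. NEDD1 was then at −0.76 in CDK16-sh1 and at −1.11 in CDK16-sh2, and 33 of the 38 were again below 0 in CDK16-sh1 (49.5% of genes with a value), TUBGCP4 having turned to 0.16 and CNTROB to −0.11. With the trend in exon length removed, 4 of the 38 were at least 2-fold lower in CDK16-sh1 (5.81% of all tested genes) and the median was −0.33. The part of GC content and length in the difference between the hairpins was not tested.

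**Figure D4:**
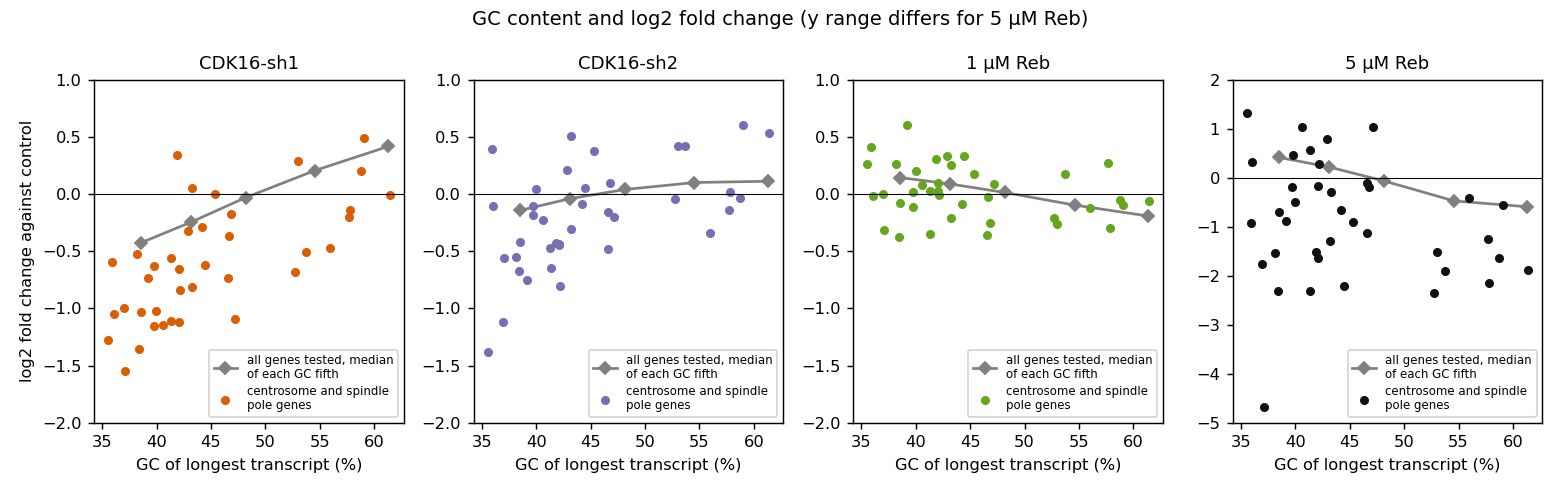
Log2 fold change (y axis) against the GC content of the longest transcript (x axis, percent) for the 38 genes (points) and the median of all tested genes in each of 5 equal bins of GC content (grey diamonds), in each treated library; the y range is wider for 5 μM Reb. In CDK16-sh1 the grey line climbs with GC content (r = 0.48 across all genes) and most of the 38 genes lie below it, and at 5 μM Reb it runs the other way (r = −0.22).

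With both hairpins taken as 1 group against the scramble library, 0 of the 38 genes were called (0% of all tested genes, edgeR quasi-likelihood test, Benjamini-Hochberg adjusted). The smallest adjusted p over all genes was 0.195. An unadjusted p-value under 0.05 was reached by 382 of all tested genes, or 2.498%, and by 1 of the 38. That gene was NEDD1, whose adjusted p by edgeR was 1.00. DESeq2 also called 0 genes, with 233 genes and NEDD1 of the 38 under 0.05. In this fit the difference between the hairpins serves as the spread. Where scaled by library totals, 5 of the 38 were under an unadjusted 0.05, against 2.35% of all tested genes, and 0 were called.

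Reb was compared with DMSO at 2 doses. At 1 μM the 38 genes were spread evenly around their DMSO levels, with 19 of 38 below 0 (49.8% of all tested genes) and a median of −0.00. Under library totals 15 of the 38 were below 0 (43.5%). None was at least 2-fold lower (0 of 38, against 1.92% of all tested genes) or higher (0 of 38, against 1.28%). Only in the spindle pole and midbody group were all genes below DMSO. The 6 ranged from −0.36 for AURKA to −0.08 for CKAP5. Each of their intervals lay below 0, as did those of 15 of the 38 genes and 5155 of the 15655 tested genes. The largest departure upward was CEP78, with 29.1 CPM in DMSO and 44.3 CPM at 1 μM (0.61 [0.52, 0.70]), and the largest downward PLK4, with 55.3 and 42.6 CPM (−0.38 [−0.45, −0.30]). Across all genes with a value, the log2 fold change at 1 μM correlated with GC content with r = −0.30. With that trend removed, 10 of the 38 changed sign, and their median was −0.05 against 0.01 for all genes with a value.

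At 5 μM Reb, 30 of the 38 genes were below DMSO (51.7% of all tested genes), and the median was −0.89 against −0.07 for all tested genes. At least 2-fold lower were 17 of 38, or 44.7% (27.2% of all tested genes), and at least 2-fold higher 3 of 38, or 7.89% (23.6%). Much of the transcriptome thus stood past 2-fold in this library, and the 38 genes lay further down than it. The doses share the DMSO library.

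ASPM had the largest difference, 25.7-fold lower at 5 μM, and only 0.313% of all tested genes had a lower log2 fold change. Its level was 163.7 CPM in DMSO, 131.9 CPM at 1 μM and 6.32 CPM at 5 μM, from 9549, 7816 and 171 counts (−4.69 [−4.92, −4.48] at 5 μM). The gene lies on chromosome 1 from 197084128 to 197146694. CEP55 went from 162.8 CPM in DMSO to 127.5 and 32.6 CPM (−0.35 and −2.32). TACC3, which crosslinks microtubules of the spindle fibres with CKAP5, went from 252.5 CPM to 206.2 and 56.9 CPM (−0.29 and −2.15). AURKA went from 116.8 CPM to 91.0 and 53.2 CPM (−0.36 and −1.14). TPX2, its activator and the most abundant of the group, had 546.4, 459.7 and 476.7 CPM and was at −0.20 at 5 μM, and CKAP5, a microtubule polymerase, was at −0.66. Under TMM scaling the spindle pole genes therefore ranged from a level near DMSO to a 25.7-fold difference. Scaled by library totals, which shifted all tested genes by −0.68, TPX2 was at −0.89 and CKAP5 at −1.35.

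Among the genes of centriole duplication, 4 of 11 were at least 2-fold lower at 5 μM and 1 at least 2-fold higher, where 27.2% and 23.6% of all tested genes were. PLK4 went from 55.3 CPM to 42.6 CPM at 1 μM and 11.1 CPM at 5 μM (−2.32 [−2.50, −2.15]). STIL had 25.7, 26.2 and 8.24 CPM (−1.63 at 5 μM), CEP97 had 18.3, 18.4 and 5.36 CPM (−1.77), and CNTROB had 167.4, 161.9 and 53.8 CPM (−1.64). CEP152, the dock of PLK4, was higher, with 57.5 CPM in DMSO, 60.6 CPM at 1 μM and 117.1 CPM at 5 μM (1.03 [0.96, 1.10]). CEP63, which forms a ring with CEP152, had 52.3, 65.9 and 89.8 CPM (0.33 and 0.78). PLK4 and its dock thus stood on opposite sides of DMSO. CEP57, CEP76, CEP78, CEP120 and CEP135 lay between −0.88 and 0.32.

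The γ-tubulin ring complex was also divided. NEDD1 was the highest of the 38 at 5 μM, with 13.1 CPM in DMSO, 15.8 CPM at 1 μM and 32.9 CPM at 5 μM (1.32 [1.18, 1.47]). TUBGCP3, on chromosome 13 from 112485005 to 112588167, had 50.3, 53.5 and 103.5 CPM (1.04 [0.97, 1.12] at 5 μM). Its core partner TUBGCP2 had 88.7, 82.8 and 60.4 CPM (−0.55). TUBGCP5 and TUBGCP6, subunits of the complete ring, were at least 2-fold lower, TUBGCP5 with 15.4, 19.4 and 3.29 CPM (−2.21 [−2.56, −1.91]) and TUBGCP6 with 19.2, 18.4 and 5.18 CPM (−1.88 [−2.15, −1.64]). TUBGCP4 was at −0.91. PCNT had 294.7, 270.8 and 221.4 CPM (−0.41), and CDK5RAP2 and CEP192 were at −0.10 and −0.17.

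Of the appendage, linker and satellite genes, 4 of 9 were at least 2-fold lower at 5 μM (27.2% of all tested genes). CEP164, a distal appendage protein needed to start a cilium, had the largest difference of the group, with 161.2 CPM in DMSO, 139.4 CPM at 1 μM and 31.3 CPM at 5 μM (−2.36 [−2.47, −2.26]). The gene lies on chromosome 11 from 117314557 to 117413268. CEP250 went from 612.8 CPM to 690.8 CPM and 163.5 CPM (0.17 and −1.91), OFD1 from 42.6 to 50.9 and 17.3 CPM (0.26 and −1.30), and NINL, a relative of NIN, from 12.4 to 15.0 and 5.18 CPM (0.27 and −1.26). These 3 genes were above DMSO at 1 μM and below it at 5 μM. CEP290, of the base of the cilium, was at 0.41 and −0.92, and PCM1, the scaffold of the satellites, at 0.02 and −0.19. The subdistal appendage genes CEP170 (0.46), NIN (0.28) and the centriole protein CEP350 (0.56) were above DMSO at 5 μM under TMM scaling and below it when scaled by library totals (−0.23, −0.41 and −0.13). All 3 augmin subunits of the list were at least 2-fold lower at 5 μM, HAUS6 at −1.53, HAUS1 at −1.52 and HAUS8 at −1.51. Their levels were 25.3, 30.5 and 8.72 CPM for HAUS6, 14.9, 18.5 and 5.18 CPM for HAUS1 and 47.9, 40.02 and 16.8 CPM for HAUS8. Other augmin subunits, from the further list given below, were divided. At 5 μM HAUS5 (−2.25), HAUS7 (−1.91) and HAUS4 (−0.26) were below DMSO, and HAUS2 (0.76) and HAUS3 (1.37) were above it.

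**Figure D5:**
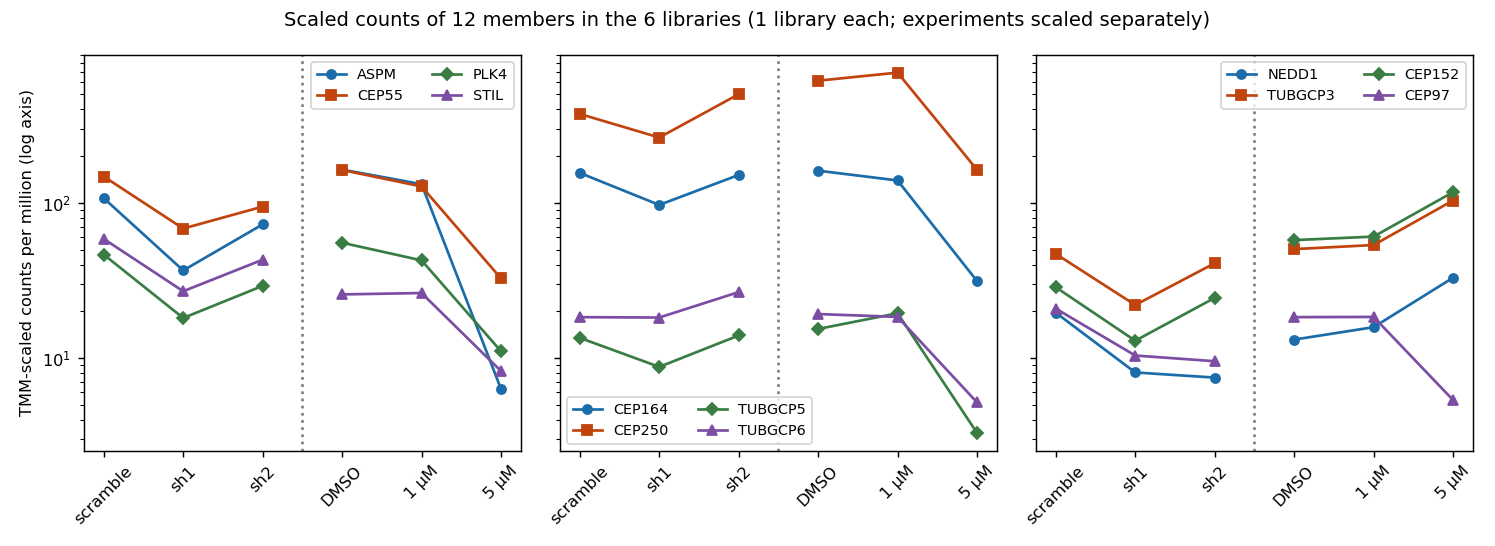
TMM-scaled CPM (log axis) of 12 of the genes in the 3 libraries of the knockdown experiment (left of the dotted line) and the 3 of the Reb experiment (right), 1 library per point and the experiments scaled separately. ASPM goes from 163.7 CPM in DMSO to 6.32 CPM at 5 μM Reb, while NEDD1, TUBGCP3 and CEP152 are lower in CDK16-sh1 and higher at 5 μM Reb than in their controls, less than 2-fold higher when scaled by library totals.

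Scaling bears on which genes stand above DMSO or near it. With library totals in place of TMM, all tested genes at 5 μM Reb shifted by −0.68, the 38 genes had a median of −1.58, and 25 were at least 2-fold lower and 0 at least 2-fold higher, against 17 and 3 under TMM. Of all tested genes 43.4% were then at least 2-fold lower and 11.7% higher. NEDD1 (0.63), TUBGCP3 (0.35), CEP152 (0.34) and CEP63 (0.09) stayed above DMSO and CEP135 turned from 0.32 to −0.37. With the GC trend removed, 20 were at least 2-fold lower (26.2% of genes with a value) and 0 higher (21.8%), and NEDD1 was at 0.74, TUBGCP3 at 0.98 and CEP152 at 0.67.

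With both doses taken as 1 group against DMSO, 0 of the 38 genes were called (edgeR quasi-likelihood test, Benjamini-Hochberg adjusted, against 0.00639% of all tested genes called lower and 0.0703% higher). No gene of the 38 had an unadjusted p-value under 0.05, by edgeR or DESeq2, while 228 of all genes did by edgeR. Here the difference between the doses serves as the spread, so a gene that moved mainly at 5 μM could hardly be called. ASPM, at −0.31 and −4.69, was such a gene, and the lack of calls does not show that the 38 were unchanged. When log2(dose + 1) entered the model as a linear term, with the dose in μM, which leaves 1 residual degree of freedom, 10 of 38 were called lower (11.1% of all tested genes) and 0 of 38 higher (13.3%). These were ASPM (edgeR's adjusted p = 5.59e-05), PLK4, CEP55, CEP164, TACC3, TUBGCP5, TUBGCP6, CEP97, CEP250 and STIL (adjusted p = 0.04997). In that fit NEDD1 had an adjusted p of 0.0734 by edgeR.

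The median log2 fold change of 15 genes that mark dividing cells was −0.44 in CDK16-sh1, −0.49 in CDK16-sh2, −0.30 at 1 μM Reb and −2.06 at 5 μM Reb, where 13 of the 15 were at least 2-fold lower (27.2% of all tested genes). The medians of the 38 genes in these libraries were −0.62, −0.17, −0.00 and −0.89. MKI67 had 103038 counts in DMSO, 68014 at 1 μM and 5905 at 5 μM, and TOP2A had 26854, 21026 and 730. The part of the share of dividing cells in the results for the 38 genes was not tested.

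A further list of centrosome and spindle pole genes gave 68 tested genes in each experiment. Their median was −0.25 in CDK16-sh1, with 6, or 8.82%, at least 2-fold lower (6.86% of all tested genes), and −0.03 in CDK16-sh2, with 3, or 4.41% (7.62%). These shares were near or under those of all tested genes. CCDC14, of the centriolar satellites (−1.27 and −1.16), and CCP110, the partner of CEP97 in capping centrioles (−1.12 and −1.25), were at least 2-fold lower with both hairpins. That is 2 of the 68, or 2.94%, against 1.44% of all tested genes. The largest shared differences upward were those of HAUS7, an augmin subunit (0.85 and 0.74), and CETN2, a centrin (0.76 and 0.75). At 5 μM Reb the median was −0.51, with 20, or 29.4%, at least 2-fold lower (27.2%) and 9, or 13.2%, higher (23.6%). Ranked by the smaller of the differences at 1 μM and 5 μM, the lowest were FBF1, a distal appendage protein (−0.91 and −1.43), CROCC, a linker fibre protein (−0.71 and −2.33), CEP170B (−0.63 and −0.89), WDR62, a spindle pole protein and microcephaly gene (−0.44 and −1.64), and the augmin subunit HAUS5 (−0.43 and −2.25). The highest were CEP83, a distal appendage protein (0.55 and 1.78), CEP85L (0.49 and 1.04), CEP70 (0.47 and 2.30) and the augmin subunits HAUS2 (0.37 and 0.76) and HAUS3 (0.32 and 1.37). The ends of the range at 5 μM alone, chosen after their values were seen, were CCDC77 at −3.10 (1550 counts in DMSO, 1207 at 1 μM and 83 at 5 μM) and MCPH1, a microcephaly gene, at 3.44 (693, 712 and 3488 counts).

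Promoter sequences are shown for genes on both sides of DMSO at 5 μM Reb, ASPM, CEP55, STIL and CEP164 among the lower and NEDD1 and TUBGCP3 among the higher. RefSeq windows on GRCh38.p14, from 250 bases before to 50 bases after a start site, matched 32 of the 38 genes, in 43 windows. AURKA, TPX2, PCM1, CEP250, CEP78 and TUBGCP4 were not matched. Each stretch begins 150 bases before the start site of the upstream window and ends at the start site or at the last base before an annotated exon. It is written in the direction of the gene. The stretch of CEP164 lies inside the gene as counted, which begins further upstream, at 117314557. Capitals mark matches, on either strand, to TTTGAA (the cell cycle genes homology region, CHR), to CCAAT (bound by NF-Y) or to the E2F cores, which read TTTGGCG, else TTTCCCG, else TTTCGCG.
ASPM (chr1:197146695-197146819, minus strand): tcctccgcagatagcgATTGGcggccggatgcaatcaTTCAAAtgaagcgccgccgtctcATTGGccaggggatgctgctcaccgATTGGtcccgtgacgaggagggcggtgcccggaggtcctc
CEP55 (chr10:93496462-93496611, plus strand): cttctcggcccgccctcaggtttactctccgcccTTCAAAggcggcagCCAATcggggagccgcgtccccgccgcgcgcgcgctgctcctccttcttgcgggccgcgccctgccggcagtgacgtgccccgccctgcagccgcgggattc
STIL (chr1:47314148-47314297, minus strand): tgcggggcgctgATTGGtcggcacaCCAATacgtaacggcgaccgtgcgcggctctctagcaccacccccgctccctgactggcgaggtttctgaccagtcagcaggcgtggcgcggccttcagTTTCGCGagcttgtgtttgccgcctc
CEP164 (chr11:117327704-117327836, plus strand): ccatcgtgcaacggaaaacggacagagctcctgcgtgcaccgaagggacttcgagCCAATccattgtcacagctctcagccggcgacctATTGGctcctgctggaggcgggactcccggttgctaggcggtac
NEDD1 (chr12:96907107-96907222, plus strand): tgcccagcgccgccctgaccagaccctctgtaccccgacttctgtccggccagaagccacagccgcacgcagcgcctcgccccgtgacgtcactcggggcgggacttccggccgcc
TUBGCP3 (chr13:112588206-112588303, minus strand): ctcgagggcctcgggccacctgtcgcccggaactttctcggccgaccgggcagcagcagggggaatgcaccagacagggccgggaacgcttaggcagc

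In these stretches ASPM held 1 CHR and 3 CCAAT matches, CEP55 held 1 of each, STIL 2 CCAAT and 1 E2F match and CEP164 2 CCAAT matches, while NEDD1 and TUBGCP3 held 0 of the 3 motifs. Over whole windows, CHR was in 32.6% of the 43 windows and in 15.2% of the 35116 windows of all genes, CCAAT in 37.2% and 34.6%, and the E2F cores in 18.6% and 7.21%. Of the 15 matched genes at least 2-fold lower at 5 μM Reb, 4 had CHR, 8 CCAAT and 2 an E2F core, and of the 17 others 9, 5 and 5 did. CEP152, higher at 5 μM, had 1 CHR and 2 CCAAT matches in its window. A match is a description of the letters and says nothing of binding.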

How the data were processed

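Messenger RNA of MDA-MB-231 cells was sequenced from stranded libraries on a HiSeq X 10. The authors deposited whole-number read counts per gene symbol without normalization, and RPKM values, which equal those counts divided by gene length and library total. The submitters' processing notes name Trimmomatic, featureCounts, Subread 1.5.1 and GRCh38. The aligner, the annotation and the strand setting of the counting are not given in the sources used here. Of the 38 genes, 13 overlap exons of a gene on the opposite strand, TUBGCP4 over 33.4% of its exon bases with TP53BP1, TUBGCP2 over 11.6% with ZNF511, the others over less. Coordinates are those of the deposited tables and matched GENCODE 29 at both ends for 36 of the 38.

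Counts were TMM-scaled to CPM with edgeR 4.0.16 (R 4.3.3), genes averaging at least 1 CPM were kept, and log2 fold changes took a prior count of 2. The threshold of 2-fold and the adjusted p-value of at most 0.05 are those of the study's methods. The quasi-likelihood test set the pooled treated libraries against their control. Nothing says that libraries came from separate cultures, so p-values measure only the spread between these libraries. Each condition had 1 library, so intervals cover counting error only, and copies of the same molecule among the reads were not examined. GC content came from the longest GENCODE transcript. The RPKM alternative added 0.1. DESeq2 1.42.0 was an alternative, as were other scalings, filters, thresholds and trend corrections. Values in every library were given for genes at least 2-fold from control, for the 5 largest shared differences each way averaging at least 5 CPM, for the most abundant gene of each role and for PCNT. The genes and lists were chosen with earlier results of these data known.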

Additional observations from a re-analysis of the deposited data

How the results depend on the processing

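Each condition had 1 library, so leaving out a library gives no test. No paired analysis was possible because no condition had a replicate number shared with a separate culture. The count of 0 of the 38 genes called with both hairpins as 1 group held under DESeq2, DESeq2 size factors, library totals, no fold threshold and no filter on low counts. For Reb, log2(dose + 1) as a linear term called 10 in place of 0. At a 1.5-fold threshold 21 genes were lower in CDK16-sh1, 6 lower and 1 higher in CDK16-sh2, and 1 higher at 1 μM Reb. Of all tested genes, between 18% and 19% were as low in CDK16-sh1. In CDK16-sh2 between 16% and 17% were, so the 6 genes there were near the share of all tested genes. A 1.5-fold rise lay between percentiles 88 and 89 of all tested genes in CDK16-sh2 and between 93 and 94 at 1 μM Reb. At 4-fold 0 were lower in CDK16-sh1, 0 in CDK16-sh2, and 6 lower and 0 higher at 5 μM Reb. Between 10% and 11% of all tested genes were at least 4-fold lower at 5 μM Reb, and a 4-fold rise lay between their percentiles 91 and 92. Library totals moved the median to −0.37 in CDK16-sh2 and −1.58 at 5 μM Reb and the authors' RPKM to −0.36 and −1.49, with 0 genes higher at 5 μM under both. Without the length trend the median was −0.33 in CDK16-sh1, with 4 lower, and −0.78 at 5 μM Reb. In CDK16-sh2 it was 0.0153, with 1 lower, against 0.11 for all tested genes. Without the GC trend it was −0.45 in CDK16-sh1, with 1 lower, and −1.10 at 5 μM Reb, with 0 higher, and 1 gene was lower in CDK16-sh2. Without a filter on low counts the median at 5 μM was −1.10, with 1 gene higher, and with a filter at 5 CPM 1 gene was higher. The cause of these shifts was not tested. Depth limits most the genes with few counts, such as TUBGCP5 at 5 μM Reb with 89.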
